A study of Talpa occidentalis with 6 samples.

Results

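Chromatin is open where nucleosomes are sparse and regulatory proteins can reach the DNA, and ATAC-seq reads this out with a transposase that inserts sequencing adapters into such DNA. Most open sites are short, about the footprint of a promoter or an enhancer. Stretches that stay open over longer distances are known from promoters in CpG islands, from clustered enhancers and from arrays of repeated sequence.

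The regions described here are wide open stretches in the gonads of the Iberian mole, Talpa occidentalis. Females of this species carry ovotestes, with an ovarian part that makes eggs and a testicular part that makes androgens, and males carry testes. Chromatin was profiled in wild-type (Wt) animals at postnatal day 7 (P7) in the ovarian part, the testicular part and the testis, with 2 samples of each, or 6 in all. Dissociated cells of the whole tissue were used, 50000 in each reaction, so a region can owe its state to any cell type present. The labels do not say whether the samples came from separate animals. Library numbers in the sample titles run on across both parts of the ovotestis and are apart for the testis, so the testis and its library series cannot be told apart.

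For each tissue the authors deposited 1 segmentation, shared by both of its samples, that gives every bin of 200 bp 1 of 5 numbered states. State 1 was taken as open from its red colour and its place at one end of the series of states, which was not checked against reads or gene starts. A region was included if state 1 ran unbroken for at least 2000 bp in any tissue, and such segments were merged where they overlapped. Scaffolds 1 to 17 of the assembly talOcc4 without scaffold 15 were used, 1920 Mb in all. This gave 757 wide regions, beside 48509 merged state 1 regions of any width on the same scaffolds. Of the 757, 626 lay outside scaffold 2 from 30 to 42 Mb and 131 inside that interval, which is described apart. All values below are for the 626 unless the interval is named.

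Width chose these regions, so their widths and tissue patterns are descriptions without a test. With 1 pooled segmentation in each tissue, no spread between samples could be computed, and a difference between tissues has no replicate check. The sequencing depth is unknown. Comparing tissues takes state 1 to mean the same in each, and the sources used here do not say whether 1 shared model assigned the states. Intervals are Wilson 95% intervals, which cover counting error only and treat neighbouring regions as independent. No genes or base sequences were assigned, since the reference at hand gives no positions on these scaffolds and the gene annotation that came with the data is for another assembly.

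The wide regions were mostly just above the minimum, with a short tail of much wider stretches. The merged width had a median of 2200 bp, and 90% of the regions were at most 3000 bp wide. Exactly 2000 bp was the width of 249 regions (39.8%) and 2200 bp that of 122 (19.5%). Only 15 regions spanned 4000 to 4800 bp, and 9 spanned 5000 bp or more. Single segments of 1800 bp, just below the minimum, numbered 310 in the ovarian part, 229 in the testicular part and 200 in the testis. Segments of exactly 2000 bp numbered 202, 133 and 99. The minimum therefore cuts a falling distribution at no natural break.

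Wide segments were rare among open segments and held a larger share of the open sequence. In the ovarian part 493 of 29248 state 1 segments were wide (1.69%), and they held 6.78% of the state 1 length. In the testicular part 369 of 28192 were wide (1.31%), with 5.82% of the length. In the testis 233 of 34013 were wide (0.685%), with 3.2% of the length. The testis thus had the most state 1 segments and the fewest wide ones, while its summed state 1 length, 17.1 Mb, lay between 16 Mb in the testicular part and 17.3 Mb in the ovarian part.

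The same order held inside the regions. The longest state 1 segment of a region had a median of 2000 bp in the ovarian part, 2000 bp in the testicular part and 1600 bp in the testis. Its lower quartile was 2000, 1600 and 1200 bp. The ovarian part had the longer segment than the testis in 425 regions (67.9%), the shorter in 94 (15%) and an equal one in 107. Over all 46569 merged state 1 regions outside the interval, these directions were nearly balanced, at 36.6% and 36.3%. The testicular part had the longer segment than the testis in 341 regions (54.5%) and the shorter in 141 (22.5%), against 24.9% and 34.2% of all merged regions. Between the parts, the ovarian part had the longer segment in 327 regions (52.2%) and the testicular part in 155 (24.8%), against 35.9% and 25.3%. The width rule favours the tissue with the longer segments, so these shares describe the regions and are no evidence on the tissues.

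**Figure D1:**
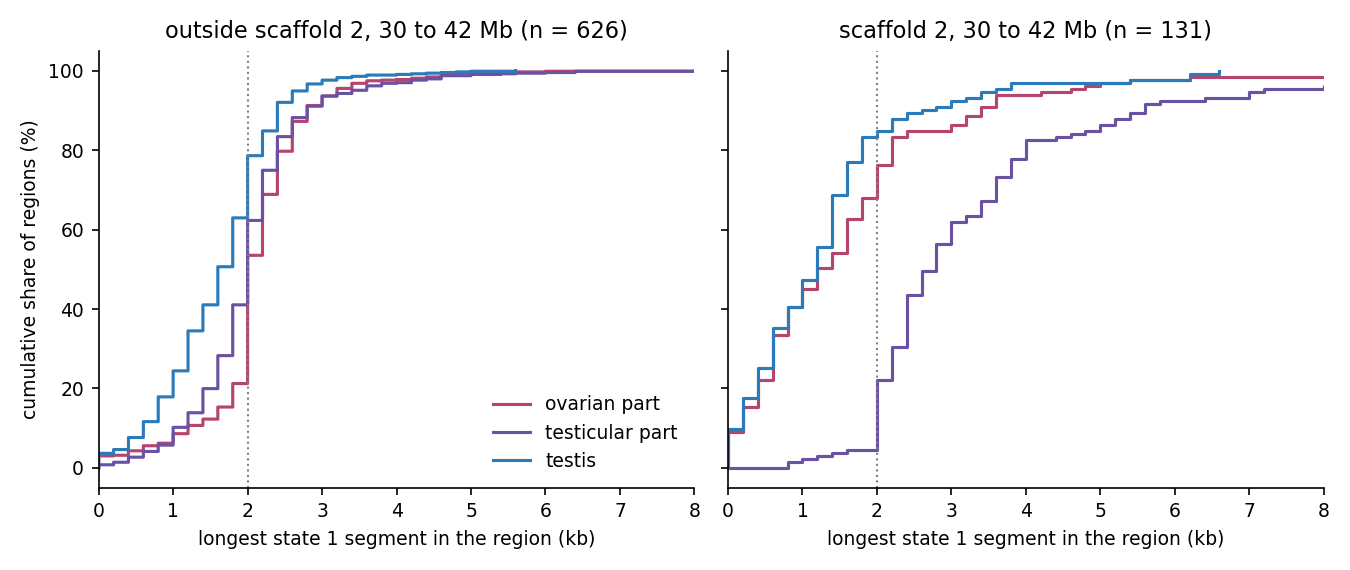
Cumulative share of wide regions (vertical axis, %) against the longest state 1 segment each holds in a tissue (horizontal axis, kb, drawn to 8 kb), with the 2000 bp minimum dotted. Outside the interval (left, 626 regions) the testis curve lies to the left of both parts, with a median of 1600 bp against 2000 bp. In the interval (right, 131 regions) the testicular part stands apart, with a median of 2800 bp against 1200 bp in the other tissues. Segments over 8 kb number 1 in each part outside the interval, and 2 in the ovarian and 5 in the testicular part inside it.

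Wide in all tissues were 153 regions (24.4%, 21.2% to 28%), each with a state 1 segment of at least 2000 bp in all 3 tissues. Another 116 (18.5%) were wide in both parts of the ovotestis and not in the testis. The ovarian part alone was wide in 197 (31.5%, 28% to 35.2%), the testicular part alone in 81 (12.9%, 10.5% to 15.8%) and the testis alone in 33 (5.27%, 3.78% to 7.31%). The remaining combinations were small, with 27 regions wide in the ovarian part and the testis and 19 wide in the testicular part and the testis. The low count of the testis alone depended on the minimum. With the minimum lowered to 1800 bp in the testis only, so that 1.27% of its segments counted as wide, 156 of 749 regions were wide in the testis alone, against 159 in the ovarian part alone and 68 in the testicular part alone.

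**Figure D2:**
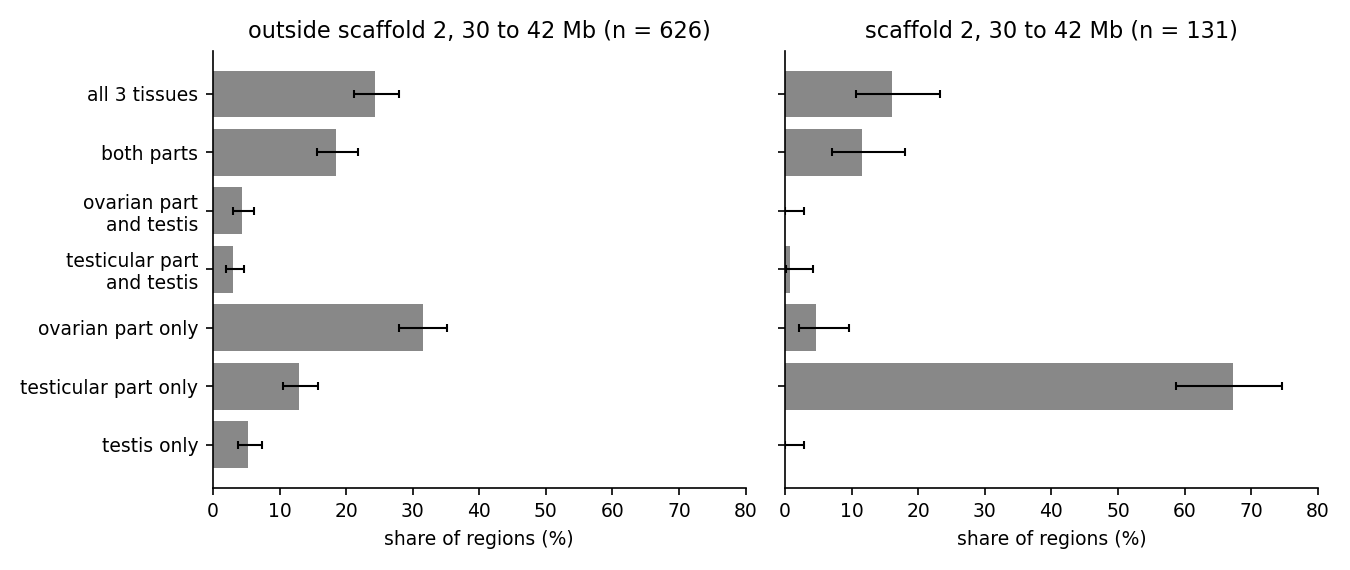
Share of wide regions (horizontal axis, %) by the tissues in which a state 1 segment of at least 2000 bp was present, with Wilson 95% intervals as bars. Outside the interval (left) the ovarian part alone (31.5%) and all 3 tissues (24.4%) lead. On scaffold 2 from 30 to 42 Mb (right) 67.2% of 131 regions were wide in the testicular part alone.

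Most of the wide regions held some open chromatin in every tissue. State 1 was present in all 3 tissues in 595 of 626 regions (95%), against 37.2% of all merged state 1 regions. It was wholly absent in the ovarian part in 19 regions (3.04%), in the testicular part in 5 (0.799%) and in the testis in 23 (3.67%). The same absences applied to 37.7%, 40.2% and 28.4% of all merged regions. These comparisons are loose. The 153 regions wide in all tissues hold state 1 in each by definition. A wider region also meets state 1 more easily, and the median width was 2200 bp against 400 bp for all merged regions. Among the 197 regions wide in the ovarian part alone, the median longest segment was 1400 bp in the testicular part and 1200 bp in the testis. Among the 33 wide in the testis alone it was 1600 bp in both parts. The 81 regions wide in the testicular part alone had less state 1 elsewhere, with a median longest segment of 1200 bp in the ovarian part and 1000 bp in the testis. State 1 was absent in 17 of these 81 in the ovarian part and in 15 in the testis, or in 22 in at least 1 of them.

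What replaced state 1 was almost always state 2, the next state of the series. State 1 covered 89.3% of the summed 1530 kb in the ovarian part, 86.6% in the testicular part and 72.5% in the testis. State 2 took 10.5%, 13.1% and 27.1%. State 3 covered 0.222%, 0.314% and 0.457%, state 4 reached 0.2 kb in the testicular part alone, and state 5 was not present in any tissue. State 1 filled the whole region in 420 regions in the ovarian part (67.1%), 243 in the testicular part (38.8%) and 134 in the testis (21.4%), beside 50.7%, 38.3% and 49.4% of all merged regions.

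The testis broke the regions into more pieces. At least 3 separate state 1 pieces were found in 26 regions in the testis, 6 in the ovarian part and 2 in the testicular part, and exactly 2 pieces in 160, 53 and 83. Where a region was not wide in the testis but held state 1 there (371 regions), 210 kb of state 1 was missing at the edges and 103 kb inside, so inner gaps made up 33% of the missing length. The inner gaps had a median of 400 bp, and 54 of 201 were a single bin. In the same kind of regions, inner gaps made up 26.6% of the missing length in the ovarian part (114 regions) and 22.9% in the testicular part (252 regions). In such regions most of the missing length was thus at the edges in each tissue. Regions wide in a tissue and regions without state 1 there were not counted, so this does not cover all the missing length.

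Where all 3 tissues were wide, most of their boundaries nearly coincided. Of the 306 boundaries of the 153 regions, 155 (50.7%) fell in the same bin in all 3 tissues and 266 (86.9%) within 200 bp, while the longest shift was 13200 bp. The stretch in state 1 in all 3 tissues had a median of 2200 bp, against 2400 bp for the merged region. In 40 regions the 3 segments were identical, and the widest of these spanned 4600 bp on scaffold 12 at 10251401 to 10256000. The next spanned 3600 bp on scaffold 7 at 121168401 to 121172000 and 3400 bp on scaffold 1 at 29236001 to 29239400. These 3 were filled by state 1 from end to end in every tissue.

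Reading the wide segments of 1 tissue in another uses values that did not choose them. Of the 493 wide segments of the ovarian part, 488 (99%, 97.6% to 99.6%) overlapped state 1 in the testicular part and 485 (98.4%, 96.8% to 99.2%) in the testis, against 66.4% and 67.7% of its segments of any width. Of the 233 wide segments of the testis, 231 (99.1%) overlapped state 1 in the ovarian part and 233 (100%, 98.4% to 100%) in the testicular part, against 59.4% and 66.6%. The 369 wide segments of the testicular part were read slightly less often, 351 (95.1%, 92.4% to 96.9%) in the ovarian part and 353 (95.7%, 93.1% to 97.3%) in the testis, against 69.3% and 79.2%. Much of that shortfall lay in 3 chains of regions described below, picked out after seeing that they were wide in the testicular part alone. Without them 348 of 352 (98.9%) overlapped state 1 in the ovarian part and 349 (99.1%) in the testis. Leaving out regions picked for not being wide elsewhere favours higher shares, so this rise is a description and no test.

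A longer segment overlaps others more easily, so the share of segment length in state 1 was also taken. Single-bin segments of the ovarian part were in state 1 over 38.4% of their length in the testicular part, segments of 600 to 800 bp over 71%, those of 1000 to 1400 bp over 80% and wide ones over 84.9%. For testis segments read in the ovarian part these values were 39.4%, 70.6%, 86.3% and 92.1%. From segments of 1000 to 1400 bp to wide ones the share moved little in either direction. For testicular part segments read in the testis it was lower for wide ones, at 75.2% against 82.9%. No wide segment was in states 3 to 5 throughout in another tissue. The count was 0 of 493 for the ovarian part, 0 of 369 for the testicular part and 0 of 233 for the testis. Taking 3 as the most that a count of 0 allows, the upper limits were 0.609%, 0.813% and 1.29%. These are not Wilson limits. Among segments of any width, 5.92% of the ovarian part segments were in states 3 to 5 throughout in the testicular part and 6.27% in the testis. For segments of the testicular part these were 6.63% in the ovarian part and 1.49% in the testis, and for segments of the testis 14.1% in the ovarian part and 7% in the testicular part. A wide segment must be without states 1 and 2 over more bins to be counted here, so the comparison with all widths is loose.

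**Figure D3:**
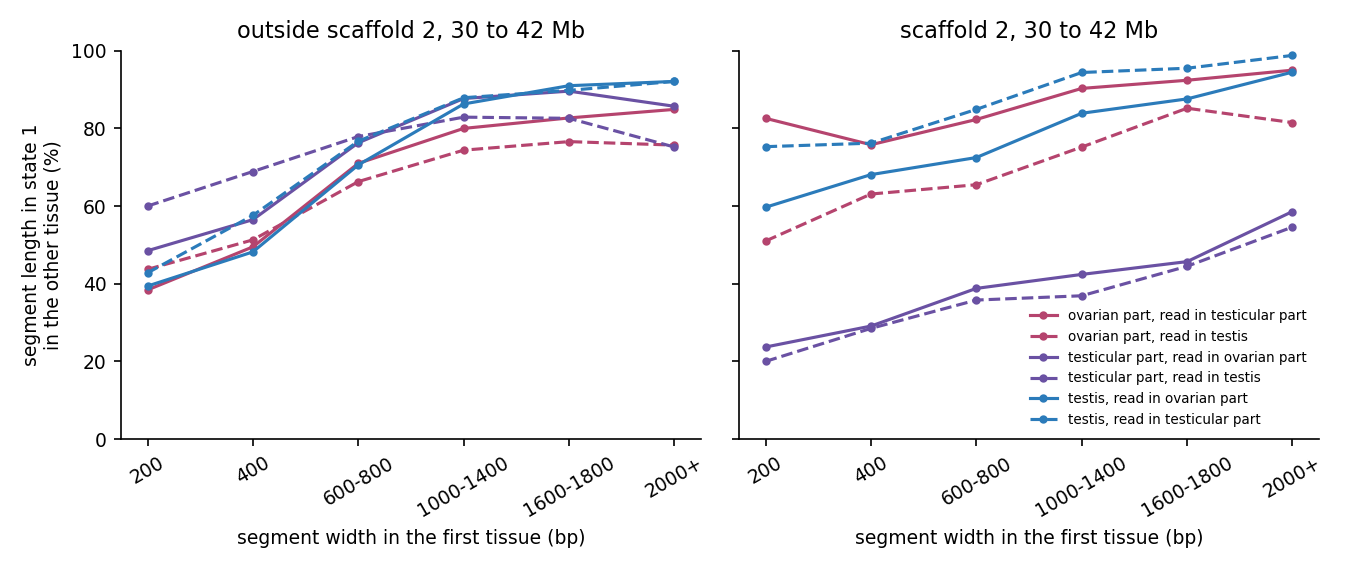
Share of segment length in state 1 in another tissue (vertical axis, %) by the width of the segment in the tissue where it was found (horizontal axis, bp); colour gives that tissue and line style the tissue read. Outside the interval (left) all lines rise to between 74.4% and 87.9% at 1000 to 1400 bp and end between 75.2% and 92.1% for wide segments. In the interval (right) segments of the testicular part stay below the others, at 58.6% and 54.6% for wide ones.

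Being open did not mean being wide in another tissue. Of the wide ovarian part segments 54.6% (50.2% to 58.9%) overlapped a wide segment in the testicular part and 36.5% (32.4% to 40.9%) in the testis. Of the wide testis segments 77.7% (71.9% to 82.6%) met a wide segment in the ovarian part and 74.2% in the testicular part. The testis also had the fewest wide segments, which bounds how many could be met there.

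With distance from the regions, the most frequent state of the flanks changed from state 2 to state 3. The first bin outside a region was in state 2 in 96.1% of cases in the ovarian part, 92.8% in the testicular part and 90.9% in the testis. At 1000 bp from the edge state 3 had become the most frequent, with 50.4%, 56.5% and 57.5%. Over 10 kb on each side states 1 and 2 together covered 28.6% of the flanks in the ovarian part, 23.7% in the testicular part and 21.1% in the testis. They covered 5.77%, 5.27% and 5.63% of the 16 scaffolds as a whole. Merged regions whose longest segment was 1000 to 1800 bp had 20.1%, 16.3% and 15% in their flanks, and those of 200 to 800 bp had 15.5%, 14.5% and 14.6%. Flanks and regions come from the same segmentation, so this excess is not independent of the width rule.

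**Figure D4:**
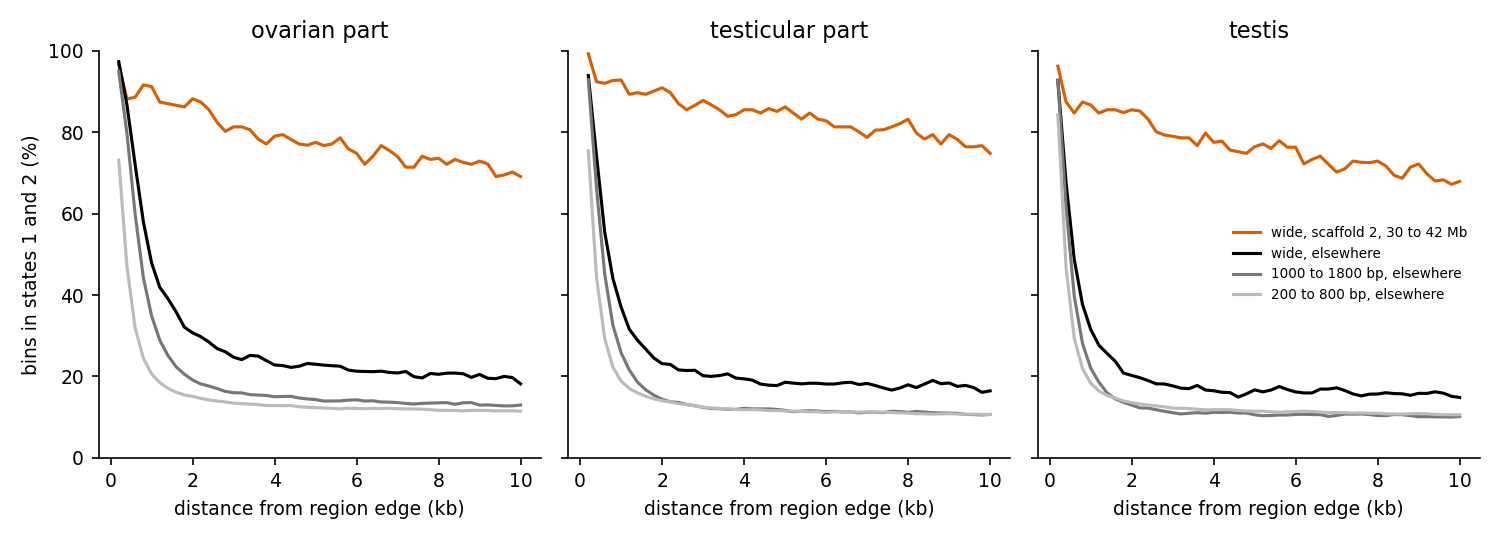
Share of bins in states 1 and 2 (vertical axis, %) against distance from the region edge (horizontal axis, kb, both sides together) in each tissue, for wide regions and for narrower merged state 1 regions. The lines of wide regions elsewhere (black) lie above those of narrower regions out to 10 kb, while wide regions of scaffold 2 from 30 to 42 Mb (orange) stay far above, with 77% to 84.3% in states 1 and 2 over the 10 kb.

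The shoulder of state 2 around a wide segment was shortest in the testis. The distance from the wide segment to the first bin in state 3 or higher had a median of 800 bp in the ovarian part (quartiles 600 and 2000 bp), 800 bp in the testicular part (400 and 1600 bp) and 400 bp in the testis (200 and 1000 bp). The shoulders were uneven. The longer side had a median of 1400 bp in the ovarian part against 600 bp for the shorter side, and 800 bp against 400 bp in the testis. The unbroken run of states 1 and 2 that held a region had a median of 4200 bp in the ovarian part, 3600 bp in the testicular part and 3600 bp in the testis. Runs of states 1 to 3 differed more between tissues, with medians of 17200, 11500 and 10000 bp.

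Among the 10 widest regions the order of the tissues was not that of the whole set. The longest segment was longer in the testicular part than in the ovarian part in 5 of them and shorter in 3. Those on scaffold 8 among the 5 lay close together, as did those on scaffold 7 among the 3. These counts are therefore not of separate places. The widest of the 626 spanned 27000 bp on scaffold 8 at 44066601 to 44093600. The testicular part was in state 1 over all of it, the ovarian part in 12 pieces that together covered 68.9%, the longest of 8800 bp, and the testis in 7 pieces covering 36.3%, the longest of 4800 bp. Its run of states 1 and 2 was 34200 bp in the ovarian part, 34400 bp in the testicular part and 34200 bp in the testis. The tissues thus differed here in how much of a run of nearly equal length was in state 1 rather than state 2. Other wide regions followed one another upstream of it with gaps of at most 800 bp, at 44054201 to 44060600 (6400 bp) and at 44061401 to 44066400 (5000 bp).

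On scaffold 14 the region at 19296801 to 19303200 spanned 6400 bp of state 1 in the testicular part, against 0 bp in the ovarian part and 2 pieces with 1000 bp in the testis. It is the widest of the regions wide in the testicular part alone. Another region of that scaffold, at 20322401 to 20328400, was in state 1 over all 6000 bp in both parts and over 80% in the testis. Scaffold 17 held regions of 5600 bp at 40132201 to 40137800 and 5400 bp at 40153401 to 40158800. The testicular part filled both, and the testis held 4 pieces in each, covering 78.6% and 74.1%. Scaffold 7 held regions of 5400 bp at 121159601 to 121165000 and 5000 bp at 121175401 to 121180400, with at least 88% in state 1 in every tissue. The last of the 10 widest, 1 of 6 regions of 4600 bp, lay on scaffold 2 at 110168001 to 110172600 with 100%, 91.3% and 82.6% in state 1 in the ovarian part, the testicular part and the testis.

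Some regions were wide in a single tissue by a large margin. On scaffold 8 the region at 18989401 to 18993600 was in state 1 over all 4200 bp in the testis, over 0 bp in the ovarian part and over 400 bp in the testicular part, where some of it was in state 4. On scaffold 4 the region at 570001 to 572600 was in state 1 over 2600 bp in the ovarian part and over 0 bp in the other tissues. On scaffold 2 the region at 56845801 to 56848600 held 2800 bp in the ovarian part, 200 bp in the testicular part and 400 bp in the testis. On scaffold 1 the region at 123716001 to 123718400 was in state 1 over all 2400 bp in the testicular part and the testis and over 0 bp in the ovarian part. On scaffold 13 the region at 94242001 to 94244000 held 2000 bp in the testis, 600 bp in the ovarian part and 400 bp in the testicular part. On scaffold 6 the region at 65446201 to 65449600, the widest of those wide in the ovarian part alone, held 3400 bp there and still 3200 bp in 2 pieces in the testicular part. In the testicular part that last region missed the minimum through a gap, with a longest segment of 1800 bp. In the testis it held 1800 bp in 4 pieces, the longest of 1000 bp.

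On scaffold 7 the region at 75438801 to 75443400 had a longest segment of 4600 bp in the ovarian part, 4200 bp in the testicular part and 1000 bp in the testis, where state 1 covered 47.8% in 3 pieces. Its run of states 1 and 2 was 9000 bp in the ovarian part, 7600 bp in the testicular part and 9000 bp in the testis. The run of states 1 to 3 was 21400, 9600 and 33800 bp in the same order.

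Most wide regions stood alone. The nearest other wide region was at a median distance of 634700 bp, and 489 of 626 had none within 100 kb. The 137 with a neighbour within 100 kb (21.9%, 18.8% to 25.3%) formed 49 chains, of which 31 were pairs. All merged state 1 regions are denser, and 97.3% of them have another within 100 kb. A neighbour was very close in some cases: 30 regions had a neighbour within 1000 bp and 38 within 5000 bp, and merging across gaps of up to 1000 bp left 609 regions. The nearest state 1 segment of any width lay a median of 9900 bp from the region in the ovarian part, 12800 bp in the testicular part and 10200 bp in the testis. Of 1911 windows of 1 Mb, 1462 held no wide region, 337 held 1, 76 held 2 and 24 held 3, and the fullest held 13.

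The longest chain lay on scaffold 13 from 53694201 to 53877800, with 13 regions over 184 kb. The ovarian part was wide in 12 of them, the testicular part in 8 and the testis in 4. State 1 in these regions summed to 36400 bp in the ovarian part, 28400 bp in the testicular part and 25400 bp in the testis, of 36600 bp in all. The widest member, at 53862001 to 53866200, had its longest segment at 4200, 3800 and 3400 bp in the ovarian part, the testicular part and the testis. One member, at 53823001 to 53825600, held 2600 bp in the ovarian part and 200 bp in each of the others. This chain was therefore open in all tissues, and widest in the ovarian part.

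The next chains by number belonged to the testicular part alone. On scaffold 14 from 19244001 to 19369000, 7 regions with 23000 bp in all were in state 1 throughout in the testicular part. State 1 in them came to 600 bp in the ovarian part and 1400 bp in the testis. On scaffold 8 from 119595001 to 119727800, 6 regions with 15600 bp were in state 1 throughout in the testicular part, against 1000 bp in the ovarian part and 0 bp in the testis. This chain lay 119 kb from the end of its scaffold. A shorter chain of the same kind, noticed after its values were seen, lay on scaffold 9 from 78674801 to 78694000, where 4 regions held 12000 bp, 0 bp and 1200 bp in the testicular part, the ovarian part and the testis.

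In these 3 chains the sequence was mostly in state 2 in the other tissues. Over the span on scaffold 14, states 1 and 2 together covered 70.7% in the ovarian part, 82.6% in the testicular part and 74.2% in the testis. Over the span on scaffold 8 they covered 82.1%, 85.8% and 72.9%, and over the span on scaffold 9 they covered 82.3%, 84.4% and 82.3%. State 2 alone covered 69%, 76.8% and 82.3% of the 3 spans in the ovarian part, against 4.83% of the 16 scaffolds. The 3 chains held 17 of the 81 regions wide in the testicular part alone, and 11 of the 12 in which both other tissues had no state 1. Each tissue is a pool of 2 samples, so whether 1 sample carried these chains could not be seen.

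Density differed between scaffolds. Outside the interval there were 3.29 wide regions per 10 Mb. Scaffold 17 had the highest density, 6.09 per 10 Mb, and scaffold 10 the lowest, 1.5 per 10 Mb, with 16 regions on 107 Mb. Scaffold 17 was rich in state 1 regions of any width, with 421 per 10 Mb against 245 on all scaffolds together, so that per 100 merged state 1 regions it had 1.45 wide ones, near the 1.34 of all scaffolds together. Scaffold 10 had 0.579 per 100, and scaffolds 4 and 5, with the highest ratio, had 1.82. Wide regions lay within 1 Mb of a scaffold end in 28 cases (4.47%, 3.11% to 6.39%), beside 3.59% of all merged regions and 1.67% of the sequence.

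Tissue shares varied along with the scaffold. The testis was wide in 63.5% of the 52 regions on scaffold 4 (49.9% to 75.2%), and in 15.4% of the 26 on scaffold 16 (6.15% to 33.5%). It was wide in 17.1% on scaffold 12 and in 52.3% on scaffold 1. The ovarian part ranged from 62.5% on scaffold 14 to 91.4% on scaffold 12, and the testicular part from 43.8% on scaffold 11 to 69.8% on scaffold 9. The ovarian part had the highest share on 14 scaffolds and tied with the testicular part on scaffolds 9 and 14. The testis exceeded the testicular part on scaffold 4 alone.

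**Figure D5:**
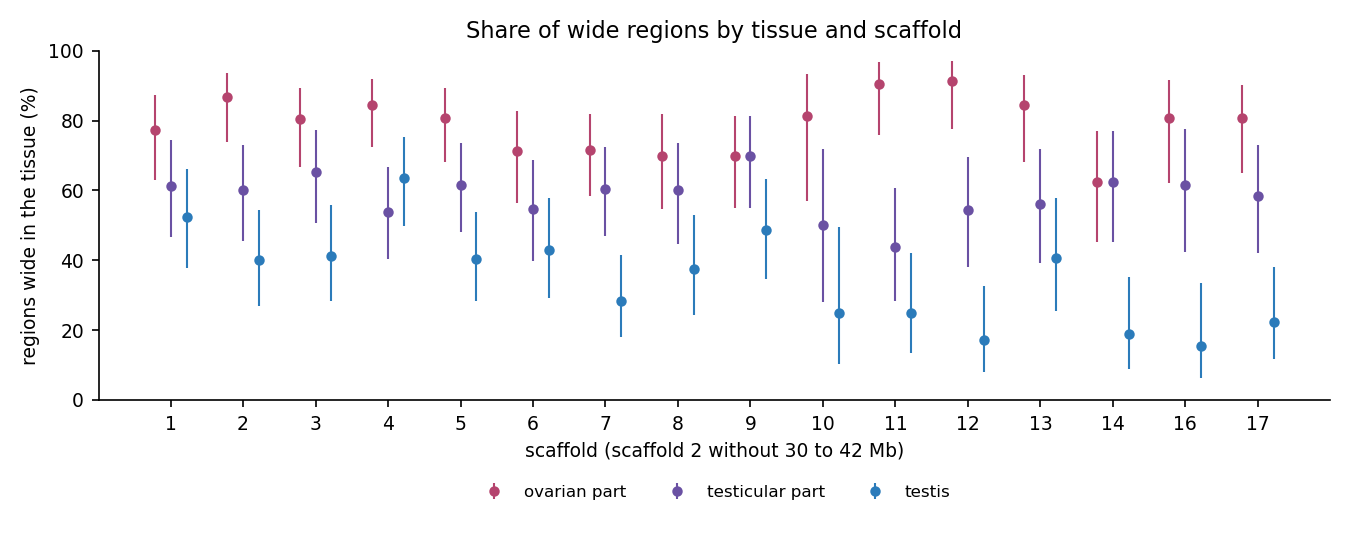
Share of wide regions that were wide in each tissue (vertical axis, %) on each scaffold (horizontal axis), with Wilson 95% intervals as bars; scaffold 2 is shown without 30 to 42 Mb. The testis runs from 63.5% on scaffold 4 to 15.4% on scaffold 16, and its interval there lies below that of the ovarian part.

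Scaffold 2 from 30 to 42 Mb held 131 wide regions in 12 Mb, or 10.9 per Mb, which was 33.2 times the density elsewhere. The interval is 0.626% of the sequence and held 17.3% of all 757 regions and 24.4% of their length. Its first region began at 30384401 and its last ended at 41215800. In the 5 Mb before 30 Mb there was 1 wide region, and in the 5 Mb after 42 Mb there was none. State 1 regions of any width were also denser on average, with 1620 merged regions per 10 Mb against 245 elsewhere. The window of 1 Mb from 35000001 had the least state 1 of the interval, with 1.26%, 1.32% and 0.66% in the ovarian part, the testicular part and the testis. It had 58.7% to 80.7% in states 4 and 5. The rest of scaffold 2 had 0.825%, 0.713% and 0.824% in state 1, so only the testis was lower in that window. Wide ones made up 6.75 per 100 merged regions, against 1.34 elsewhere.

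These regions were mainly wide in the testicular part, where 7.09% of the state 1 segments of the interval were wide, against 5.77% in the ovarian part and 3.41% in the testis. It was wide in 125 of 131 (95.4%, 90.4% to 97.9%), the ovarian part in 42 (32.1%, 24.7% to 40.5%) and the testis in 22 (16.8%, 11.4% to 24.1%). The testicular part alone was wide in 88 (67.2%), against 6 for the ovarian part alone and 0 for the testis alone. Its longest segment was longer than that of the ovarian part in 120 regions and shorter in 7, beside 70% and 11.8% of all 1940 merged state 1 regions of the interval. It was longer than that of the testis in 128 and shorter in 1, beside 73.4% and 11.4%. The ovarian part had the longer segment than the testis in 63 regions (48.1%) and the shorter in 30 (22.9%), beside 22.5% and 16.2%. The median longest segment was 1200 bp in both of these, against 2800 bp in the testicular part.

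State 1 was present outside the testicular part as well. All 3 tissues held state 1 in 116 regions (88.5%), against 30.2% of all merged regions of the interval. Here too the comparison is loose, since wider regions meet state 1 more easily and 21 regions were wide in all 3 tissues. State 1 covered 60.4% of the summed 495 kb in the ovarian part, 98% in the testicular part and 54.1% in the testis. State 2 took 39.6%, 2.02% and 45.9%, and state 3 only 0.2 kb in the testis. The runs of states 1 to 3 that held the regions had medians of 44000, 44000 and 44400 bp in the ovarian part, the testicular part and the testis. Runs of states 1 and 2 had medians of 13600, 21000 and 12800 bp. The runs of states 1 and 2 were thus longest in the testicular part, while only the medians with state 3 included were close.

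Over the whole interval state 1 covered 5.59% in the ovarian part, 11% in the testicular part and 5.11% in the testis. The rest of scaffold 2 had 0.825%, 0.713% and 0.824%. State 5 was also more frequent in the interval, with 10.3%, 10.9% and 10.6%, against 4.88%, 5.06% and 4.37% on the rest of the scaffold. Sequence beside the interval had more of it still and no wide regions. The 1 Mb before it was in state 5 over 33.6% in the ovarian part, 35.9% in the testicular part and 37.3% in the testis, and the 1 Mb after it over 39.5%, 41.9% and 38.3%.

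The regions of the interval were unevenly spread and packed closely. Windows of 1 Mb held from 0 to 27, with 27 from 37000001, 23 each from 30000001 and 40000001, and 14 each from 33000001 and 38000001. The windows from 32000001 and 35000001 held none. The nearest other wide region was at a median of 2600 bp, and 55 of 131 had one within 1000 bp. In the window from 37000001, states 1 and 2 covered 64.8% in the ovarian part, 77% in the testicular part and 66% in the testis. In the 1 Mb before the interval they covered 4.48%, 2.7% and 3.1%.

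The widest regions of the interval were among the widest of the 757. The region at 33737601 to 33762600 spanned 25000 bp, filled by state 1 in the testicular part, at 95.2% in 5 pieces in the ovarian part and at 90.4% in 7 pieces in the testis. At 33673601 to 33696800 a region of 23200 bp was at 87.1%, 96.6% and 93.1% in the ovarian part, the testicular part and the testis. At 33643801 to 33661600 a region of 17800 bp was at 96.6%, 100% and 95.5%. These 3 were thus open nearly throughout in every tissue. The region of 16200 bp at 30534401 to 30550600 was different, with 29.6% in the ovarian part, 100% in the testicular part and 33.3% in the testis. The fifth, of 9800 bp at 38144601 to 38154400, had 83.7%, 100% and 69.4%.

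Where the interval was wide in all 3 tissues, boundaries coincided less often than elsewhere. Of 42 boundaries of 21 such regions, 5 (11.9%) fell in the same bin and 13 (31%) within 200 bp. The median shift was 1100 bp, against 0 bp elsewhere, and the longest 12800 bp, against 13200 bp elsewhere. These regions were also wider, with a median merged width of 5800 bp against 2400 bp elsewhere. Shifted boundaries widen a merged region, so width and shift are not independent here. The flanks of the wide regions of the interval were rich in states 1 and 2. Within 10 kb these covered 78.5% in the ovarian part, 84.3% in the testicular part and 77% in the testis. State 1 alone covered 20.5%, 43.7% and 18.5%. Of the 125 wide testicular part segments of the interval, 90.4% overlapped state 1 in the ovarian part and 89.6% in the testis, over 58.6% and 54.6% of their length. Among its segments of any width these shares were 42.5% and 40.5%. All 55 wide segments of the ovarian part overlapped state 1 in the testicular part and in the testis, against 88.2% and 74.2% of its segments of any width. All 33 wide segments of the testis overlapped state 1 in the ovarian part and in the testicular part, against 75.4% and 85.5%.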

How the data were processed

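ATAC-seq was deposited for 6 mole samples in 3 tissues. The authors deposited 1 segmentation per tissue; the labels attach it to both samples. Per the file's values, its column 4 is a state number, a category with no scale, over bins of 200 bp. For the mole, how states were assigned was not stated in any source used here. STAR 2.6.1d and mm9 appear in the submitters' processing notes, without the step they belong to. No depth is given, so its effect on segment width is unknown.

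State 1 segments of at least 2000 bp were taken from scaffolds 1 to 17 without 15 and merged over tissues where they overlapped by at least 1 bp. Widths, pieces, states, 10 kb flanks, neighbours within 100 kb and 1 Mb windows were computed with Python 3.11.15, numpy 2.4.6, pandas 2.3.3 and scipy 1.17.1. The merging was tested on simulated data. Positions are 1-based. Named regions were the 10 widest, the 5 widest of scaffold 2 from 30 to 42 Mb, the widest of each tissue alone, the 2 with the largest difference for each pair and direction, and the 3 chains with the most regions; other regions and chains were named after their values were seen. Members and measures were chosen with earlier results of these data known. Mouse segmentations and the gene annotation were not used here.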

Additional observations from a re-analysis of the deposited data

Results flagged for a closer look

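Wide regions also occurred on sequence outside the 16 scaffolds used above. Scaffold 15, left out by the choice of scaffolds, held 17 wide regions on 88.9 Mb, or 1.91 per 10 Mb, below the 3.29 per 10 Mb of the scaffolds used. The ovarian part was wide in all 17, the testicular part in 4 and the testis in 1. In 13 the ovarian part alone was wide, and none was wide in the testicular part alone or in the testis alone. The widest spanned 2600 bp.

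The 4437 scaffolds from 18 on, 93.6 Mb in all, held 106 wide regions, or 11.3 per 10 Mb, above that value, on 26 of these scaffolds. Scaffold 18 held 43 of them and scaffold 19 held 29. The testicular part was wide in 92, the ovarian part in 37 and the testis in 23, and the testicular part alone in 65. The widest spanned 52200 bp, more than the 27000 bp and 25000 bp of the widest regions described above. Neither set entered a comparison, and there are no control samples beside them.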

How the results depend on the processing

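Of 40 values recomputed under an alternative, 20 stayed within the limits set and 20 moved. The limits differed between kinds of value and are not stated here, so these counts do not measure stability. Staying within the limits did not mean being unchanged. Without the ovarian part there were 429 regions against 626, and 97 had a neighbour within 50 kb against 137 within 100 kb. In the testis states 1 and 2 covered 14.2% of flanks of 50 kb, against 21.1% at 10 kb. At a minimum of 2400 bp scaffold 2 from 30 to 42 Mb held 7.83 regions per Mb, against 10.9. The width minimum moved the counts most. At 1600 bp there were 1637 regions, 497 wide in all 3 tissues, 735 wide in 1 tissue, 465 within 100 kb of another and 16.4 per Mb on scaffold 2 from 30 to 42 Mb. At 2400 bp the counts were 254, 63, 124 and 56, and at 3000 bp there were 81 regions, 14 of them wide in all 3 tissues. As shares, regions wide in all 3 tissues made up 30.4% at 1600 bp, 24.4% at 2000 bp, 24.8% at 2400 bp and 17.3% at 3000 bp. With the interval of scaffold 2 included, 264 regions had a neighbour within 100 kb. From 25 to 47 Mb the density was 6 per Mb. With flanks of 2 kb, states 1 and 2 covered 54.2% in the ovarian part, 44% in the testicular part and 39.7% in the testis, and with 50 kb they covered 18.1% and 15.7% in the parts. Without the 3 chains wide in the testicular part only, chosen after seeing the data, 98.9% of its wide segments met state 1 in the ovarian part and 99.1% in the testis. The width minimum set per tissue was also chosen after seeing the data. No paired analysis was possible because each tissue has 1 segmentation for both samples, and for the same reason no sample could be left out. Depth is unknown, and no limit could be derived from it.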
